A study of Homo sapiens with 12 samples.

Results

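The RBFOX family consists of RBFOX1, RBFOX2 and RBFOX3, 3 of the 19970 protein-coding genes on chromosomes 1 to 22 and X. Its H3K27ac was described from the deposited peak lists of RPMI 8226, an established multiple myeloma cell line. A peak belonged to a gene when it lay within 100 kb of the gene's RefSeq span on hg38. This gave 769 of 573987 peaks summed over 12 libraries, of which 436 were at RBFOX1, 157 at RBFOX2 and 176 at RBFOX3. The family was chosen by its peak coverage in knockout against scramble libraries, values already known from these files, so the genotype differences of the 3 genes are descriptions without a test, while their responses to the drug, and both kinds of difference in the other splicing genes, were tested.

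H3K27ac, the acetylation of histone H3 at lysine 27 a mark of active regulatory DNA, was measured with CUT&RUN, in which an antibody directs a nuclease to cut out the chromatin that carries the mark. The 4 groups were scramble control cells with DMSO, scramble control cells with 10 µM dexamethasone, CEBPB knockout cells with DMSO and CEBPB knockout cells with 10 µM dexamethasone, each for 2 h and with 3 libraries of 100000 cells. CEBPB encodes the transcription factor C/EBPβ, and dexamethasone is a synthetic glucocorticoid used against myeloma. The sources used here do not give whether the CEBPB knockout is clonal, nor whether libraries with the same label were cultured separately. The p-values therefore rest on the variation from library to library, which may be technical.

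RBFOX proteins bind a UGCAUG-type motif in pre-mRNA and, depending on whether they bind upstream or downstream of an alternative exon, repress or promote its inclusion. RBFOX1 is best known from neurons, heart and skeletal muscle, RBFOX2 is expressed in many tissues, and RBFOX3 is the neuronal nuclear antigen NeuN. H3K27ac peaks show marked chromatin, not RNA or protein, and none of the 3 proteins was measured here.

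Each library held 41164 to 56421 peaks that covered 48.0 to 66.4 Mb, and the lists gave no read counts, so the depth is unknown. In scramble cells the mean covered length (± SD, n = 3) was 58.9 ± 6.81 Mb for DMSO and 52.7 ± 6.19 Mb for dexamethasone, and in knockout cells 58.2 ± 5.48 Mb and 54.4 ± 3.96 Mb. Of 10 plasma cell markers, 9 had peaks at the gene in all 12 libraries, with a summed covered length of 34.9 to 42.2 kb in scramble and 44.3 to 48.3 kb in knockout libraries. These sums did not overlap, and their part in the results below was not tested. The remaining plasma cell marker, SLAMF7, was listed at 0 in all scramble libraries and in knockout DMSO library 2. In the other knockout libraries it had 1.08 to 2.67 kb. Of the tissues in which RBFOX genes are best known, 3 of 9 neuron markers had peaks in all libraries and STMN2 and ELAVL4 had none, with sums of 10.7 to 18.3 kb and 12.4 to 17.2 kb. No skeletal muscle marker of 6 was covered in every library, MYOD1 was listed at 0 throughout, and the sums were 0.707 to 3.16 kb and 1.80 to 3.00 kb. Of the T cell, myeloid and epithelial markers, 2 of 6, 3 of 6 and 4 of 5 were covered in all libraries, so such coverage alone does not single out plasma cells, and CD3E, CD3G, LYZ and KRT19 were listed at 0. Their sums overlapped between the genotypes. Within 100 kb of CEBPB, peaks covered 10.6 to 15.8 kb in scramble and 8.51 to 11.3 kb in knockout libraries. The mark at a gene does not check its knockout.

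RBFOX1 showed the main difference in the family. In scramble cells its 2.47 Mb span on chromosome 16 (5239721 to 7713340) carried 57 to 80 H3K27ac peaks per library with its flanks, most of them in the last 1107 kb of the gene. In knockout cells that stretch held no peak in 5 of 6 libraries. In a block of 123 kb before it, which begins at an internal, CpG-rich transcript start, the covered length of the genotypes overlapped. Their borders were set with the peaks in view, at regions that all libraries shared, which partly fixed this contrast. No other protein-coding gene lay in the RBFOX1 window.

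The starts of RBFOX1 transcripts differ in base composition and in the mark, and 3 of them are shown because they represent the start that was marked in every library, an upstream start in an empty stretch and a start inside the stretch that differed between genotypes. Each sequence is the 250 bases before a RefSeq transcript start, on the plus strand of GRCh38.p14, 5′ to 3′, with CG dinucleotides in capitals.
RBFOX1 start 1, chr16:6018774-6019023: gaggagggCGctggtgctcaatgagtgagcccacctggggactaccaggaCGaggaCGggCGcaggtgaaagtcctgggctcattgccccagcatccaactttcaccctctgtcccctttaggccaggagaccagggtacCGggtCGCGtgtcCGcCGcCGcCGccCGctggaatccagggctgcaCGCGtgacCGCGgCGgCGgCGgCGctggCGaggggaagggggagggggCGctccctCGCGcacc
RBFOX1 start 3, chr16:6483136-6483385: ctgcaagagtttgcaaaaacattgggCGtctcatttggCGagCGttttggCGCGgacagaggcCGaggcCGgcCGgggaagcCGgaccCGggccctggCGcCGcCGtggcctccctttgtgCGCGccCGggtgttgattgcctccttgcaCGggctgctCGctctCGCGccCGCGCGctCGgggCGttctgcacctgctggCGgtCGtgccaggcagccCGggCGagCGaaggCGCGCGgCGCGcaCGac
RBFOX1 start 4, chr16:7332595-7332844: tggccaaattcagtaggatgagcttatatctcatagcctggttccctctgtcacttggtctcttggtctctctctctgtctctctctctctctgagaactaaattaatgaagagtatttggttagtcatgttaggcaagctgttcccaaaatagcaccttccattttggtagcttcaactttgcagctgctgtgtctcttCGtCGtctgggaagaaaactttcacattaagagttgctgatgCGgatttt
RefSeq entries were matched for 5 RBFOX1 starts and 12 RBFOX3 starts among 35116 promoter sequences. Start 3 was 72% G or C and held 36 CG dinucleotides, a number reached by 4.85% of all promoter entries, whose median was 11. It lay under a peak in 6 of 6 scramble and 6 of 6 knockout libraries. Start 1 also held 24 CG dinucleotides at 70.8% G or C, as did start 2 at 74.8%, yet neither was under a peak in any library. Start 4 held 3 CG dinucleotides at 42.8% G or C and was under a peak in 1 scramble library and no knockout library. Start 5 held 4 and was under none.

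A C/EBP-like motif, TTGCGNAA on either strand, was in 0.752% of the promoter entries, in 0 of the 5 RBFOX1 windows and in 1 of all 17 RBFOX1 and RBFOX3 windows, at RBFOX3 start 2. A glucocorticoid receptor motif (GNACA, 3 bases of any kind and TGTNC, on either strand) was in 0.327% of the entries and in 0 of the 17. These matches describe letters in windows of 250 bases and not the distal peaks, whose sequences were not used here.

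In scramble cells with DMSO, peaks covered 84.8, 42.5 and 61.0 kb of the RBFOX1 window in libraries 1, 2 and 3, in 80, 57 and 64 peaks. With dexamethasone, the scramble libraries had 80.0, 63.9 and 62.7 kb in 70, 57 and 60 peaks. Knockout libraries with DMSO had 9.46, 8.20 and 13.7 kb in 8, 6 and 10 peaks, and those with dexamethasone 9.04, 14.4 and 8.48 kb in 7, 11 and 6 peaks. The lowest scramble library lay above the highest knockout library in both covered length and peak number, as the plot of coverage by library shows.

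**Figure D1:**
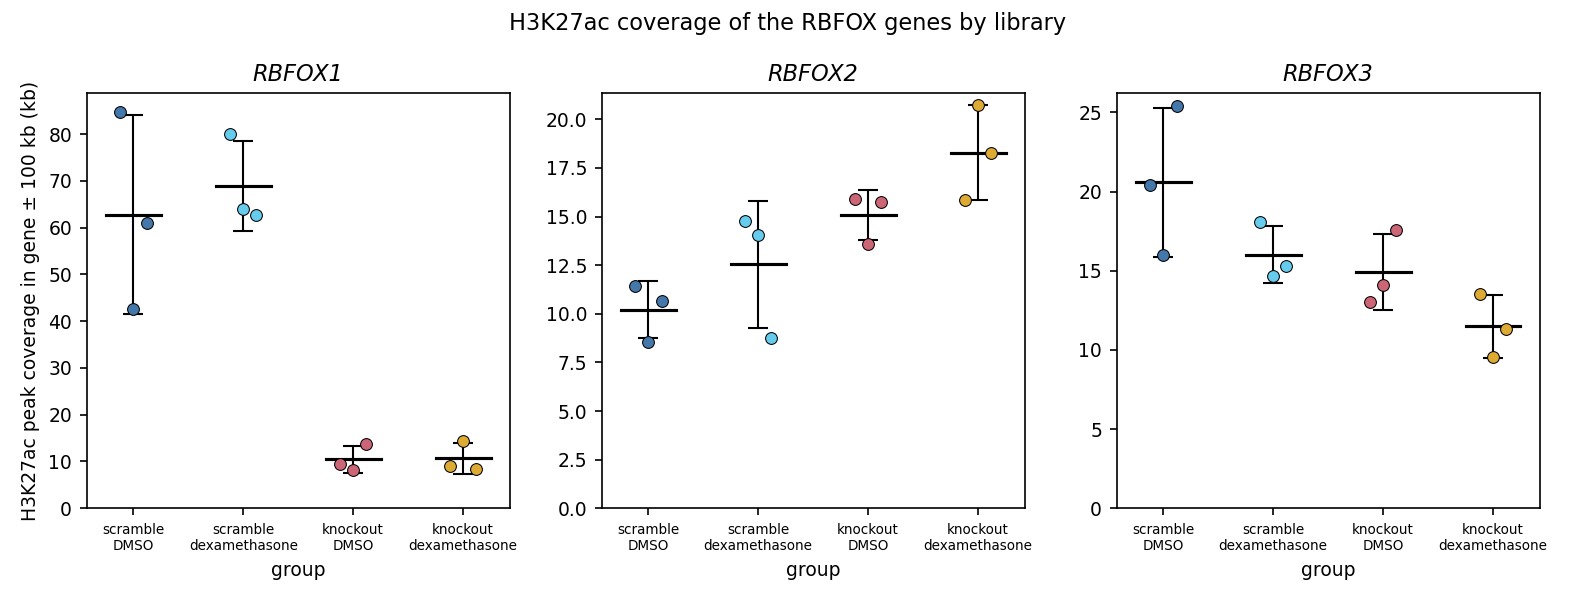
Covered length (kb) of H3K27ac peaks within 100 kb of RBFOX1, RBFOX2 and RBFOX3 in each library (points) with the mean and SD of each group of 3 libraries. RBFOX1 ranged from 42.5 to 84.8 kb in scramble and from 8.20 to 14.4 kb in knockout libraries.

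Means were 62.8 ± 21.2 kb (SD, n = 3) for scramble DMSO and 10.4 ± 2.86 kb for knockout DMSO. On the scale of quantile-normalised log2(covered base pairs + 500), the DMSO difference of knockout minus scramble was −2.41 ± 0.17 (SE). Of 18924 tested genes, 96 had a lower value. Under dexamethasone the means were 68.9 ± 9.66 kb in scramble and 10.6 ± 3.26 kb in knockout cells, the difference was −2.53 ± 0.17, and 82 genes had a lower value. The groups did not overlap in either contrast. Knockout groups lay wholly below scramble groups for 13.9% of all tested genes under DMSO and 15.4% under dexamethasone, from which nothing is read about RBFOX1, whose choice used these contrasts. With only strong peaks, those with −log10 q of at least 2, the differences were −1.68 and −1.74.

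The difference did not extend beyond the gene. In the 1 Mb below the RBFOX1 window, peaks covered 89.3 to 124 kb in scramble and 93.5 to 127 kb in knockout libraries. In the 1 Mb above it, they covered 15.7 to 21.5 kb and 12.1 to 19.9 kb. Both pairs of ranges overlapped. The 100 kb before the gene had 0.408 to 0.939 kb and 0.463 to 1.06 kb, also overlapping.

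Merging the peaks of all 12 lists where they overlapped by at least 1 bp gave 119 regions in the RBFOX1 window, 114 of them in the gene, with a median width of 1147 bp (251 to 4569 bp). Of these, 103 had no peak in any knockout library, a class that held 25% of all 103554 merged regions of the genome, and 4 had none in any scramble library, against 21.0%. Regions present in all 6 scramble and no knockout library numbered 26 of 119, or 21.8%, and the reverse class was empty. Over the whole genome, 1.54% of merged regions were of the scramble-only class and 0.992% of the reverse class. Regions found in all 12 libraries were 4 of 119 at RBFOX1, or 3.36%, against 23.9% over the genome. By treatment, 35 regions were in all 3 scramble and no knockout library under DMSO, a class that held 2.72% of the genome's regions, and 33 under dexamethasone (2.65%). A single region had the reverse pattern under each treatment, against 2.03% and 2.41% over the genome. With strong peaks alone, the scramble-only count at RBFOX1 was 5 in place of 26, while the class held 2.18% of the genome's regions in place of 1.54%. The merged strong-peak regions at RBFOX1 were not counted, so no share is given for the 5.

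**Figure D2:**
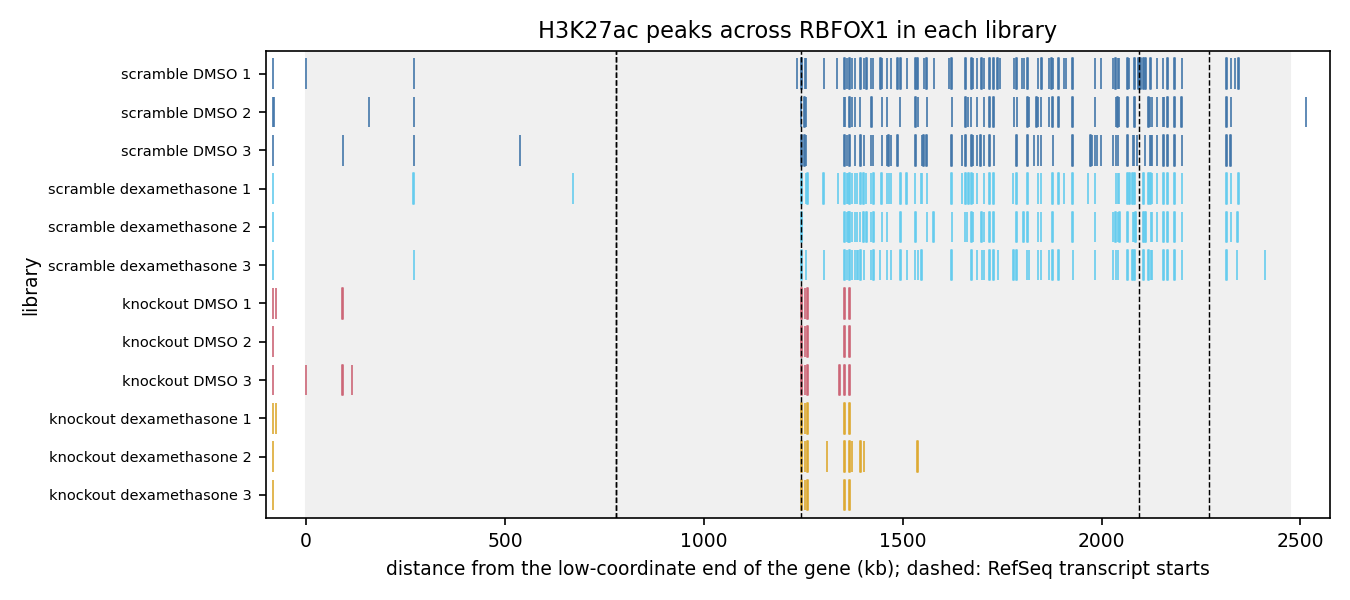
H3K27ac peaks of each library (rows, coloured by group) along RBFOX1, drawn to scale as distance (kb) from the low-coordinate end of the gene, with transcript starts marked. Scramble libraries have 46 to 68 peaks after the last region shared by all 12 libraries, and knockout libraries have 0 there, apart from 4 peaks in knockout dexamethasone library 2.

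The gene fell into 3 stretches, whose borders were chosen after the peaks were seen. The first 1243 kb, from the gene's start to the first of its regions found in all 12 libraries, was nearly bare, with 0 to 2.26 kb covered in scramble and 0 to 2.63 kb in knockout libraries. It included 564 kb (5910125 to 6474614) with no peak in any library, within which starts 1 and 2 lie. Neither genotype stood apart from the other there.

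The next 123 kb (6482809 to 6606145) held 13 regions and was covered for 4.63 to 11.3 kb in scramble (median 8.43 kb) and 7.74 to 9.96 kb in knockout libraries (median 8.21 kb), so the genotypes overlapped. Of its regions, 3 were in all 12 libraries and 6 had no peak in any knockout library. The block was set to run between regions found in all 12 libraries, so its borders fixed that both genotypes had peaks in it. It begins with the region over start 3 (6482809 to 6485507), which was present in all 12 libraries. The peak's fold, the authors' value for its enrichment over background, was 2.77, 4.08 and 3.75 there in scramble DMSO, 3.10, 3.22 and 3.25 in scramble dexamethasone, 3.65, 3.45 and 3.67 in knockout DMSO and 3.25, 3.37 and 3.31 in knockout dexamethasone. The highest folds of the block were at 6592525 to 6595449, with 4.03 to 6.26 in scramble and 4.51 to 5.14 in knockout libraries. In all 4 RBFOX1 regions shared by the 12 libraries, the folds of the genotypes overlapped.

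The last 1107 kb (6606146 to 7713340) held 94 regions, 90 of which had no peak in any knockout library (25% over the genome), and all 26 regions of the scramble-only class. The stretch was set to begin after the last region found in all knockout libraries. Its border thus partly fixed these counts, and nothing is read from their excess over the genome. Peaks covered 73.0, 36.0 and 49.2 kb of it in scramble DMSO libraries 1, 2 and 3, and 67.0, 55.7 and 54.1 kb in the scramble dexamethasone libraries. The knockout libraries were listed at 0 except knockout dexamethasone library 2, which had 5.03 kb in 4 peaks with a median fold of 2.78. Only 12.4 kb separated the last region shared by all libraries from the nearest scramble-only region.

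The 26 scramble-only regions were spread over 935 kb (6618594 to 7554082), with a median spacing of 32.1 kb and widths of 739 to 3671 bp (median 2083 bp). Among the highest was the one nearest the gene's end (7552800 to 7554082), with folds of 5.32, 5.05 and 3.80 in scramble DMSO and 5.11, 4.82 and 4.58 in scramble dexamethasone. At 7404263 to 7406016 the folds were 3.86 to 4.78, and at 7086768 to 7088870 they were 3.31 to 4.89. Each of these 3 regions had no peak in any knockout library, and they were picked for their size after their values were seen.

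The peaks of the last stretch had lower folds than the libraries' peaks at large. Their median fold per scramble library was 2.89 to 3.36, against 3.11 to 3.75 for all peaks of those libraries. Of the peaks of that stretch, 29.4% to 52.2% per scramble library were strong, with scramble DMSO library 2 the highest, against 53.8% to 70.7% of all their peaks. Over the whole RBFOX1 window, 30.0% to 56.1% of peaks per scramble library and 40.0% to 85.7% per knockout library were strong. The knockout shares rest on 6 to 11 peaks per library. Without read counts, a region with no listed peak cannot be told apart from one with signal below the authors' threshold.

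How many scramble libraries shared a region varied widely. Of the 119 regions, 31 were in all 6 scramble libraries, and 26 of these were in no knockout library. A further 13 were in 5 scramble libraries, 8 in 4, 11 in 3, 16 in 2 and 36 in a single scramble library, with 11, 8, 9, 16 and 33 of them in no knockout library. Regions missing from every knockout library were thus found at each level of sharing among the scramble libraries, as the plot of sharing shows.

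**Figure D3:**
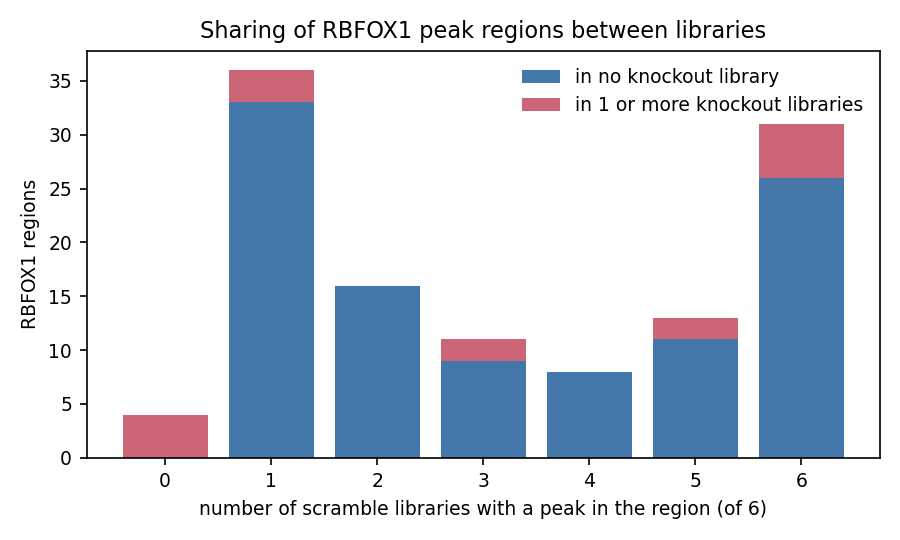
Number of merged RBFOX1 regions by how many of the 6 scramble libraries held them, split by whether any knockout library also did. Of the 31 regions in all 6 scramble libraries, 26 were in no knockout library.

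A few RBFOX1 regions ran against the pattern. The region at 6499579 to 6500684 was in all 6 knockout libraries with folds of 3.37 to 3.96 and in 1 scramble library. The region at 6492443 to 6494559 was in all scramble DMSO libraries (folds 2.37, 2.87 and 2.56), in no scramble dexamethasone library and in all 6 knockout libraries (2.61 to 4.02). Both lie in the block that begins at start 3.

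Among long genes, RBFOX1 ranked high in scramble cells and lower, though still above the median, in knockout cells. Per Mb of gene span, peaks covered 26.3 kb in scramble and 3.98 kb in knockout libraries, the sixth and nineteenth highest of 69 protein-coding genes of at least 1 Mb. The medians of those genes were 1.43 and 1.25 kb per Mb. Among falls from scramble to knockout, that at RBFOX1, the longest of these genes, was second only to that of AUTS2, with 53.4 and 0 kb per Mb. It was followed by that of MACROD2, with 27.2 and 6.71. Rises in knockout cells were not set beside these falls. The family was chosen by its genotype difference, so nothing is read from this rank.

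The genes whose normalised coverage followed that of RBFOX1 most closely over the 12 libraries were MT1HL1, MACROD2, ANKRD30A, PEG3 and ZIM2, with Pearson r of 0.989, 0.989, 0.988, 0.988 and 0.988. The libraries share their genotype, so a gene with a large genotype difference scores high by this measure, and no test is given. The lengths that follow include the 100 kb either side of each gene. MT1HL1 had 16.2 to 19.8 kb in scramble and 0 to 0.814 kb in knockout libraries. The gene itself spans only 237004103 to 237004441 on chromosome 1, so this coverage lay almost wholly in its flanks. MACROD2, which encodes an ADP-ribose hydrolase, had 43.4 to 77.9 kb and 12.3 to 16.8 kb. ANKRD30A had 7.15 to 12.2 kb in scramble libraries and was listed at 0 in all knockout libraries. PEG3, an imprinted zinc finger gene, and ZIM2 overlap and had the same 2.82 to 9.65 kb in scramble and 0 in all knockout libraries.

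RBFOX2, on chromosome 22 (35738736 to 36028824), went the other way from RBFOX1, by far less. Covered length was 11.4, 8.56 and 10.7 kb in scramble DMSO libraries 1, 2 and 3, 14.8, 14.1 and 8.78 kb in scramble dexamethasone, 15.9, 13.6 and 15.7 kb in knockout DMSO and 15.8, 20.7 and 18.3 kb in knockout dexamethasone libraries. Under each treatment the knockout libraries were above all scramble libraries. The log2 difference of knockout minus scramble was 0.51 ± 0.15 (SE) under DMSO and 0.51 ± 0.15 under dexamethasone, the latter 0.32 without scramble dexamethasone library 3. Knockout groups lay wholly above scramble groups for 14.5% and 16.8% of all genes in these contrasts.

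Most of the RBFOX2 difference under DMSO lay outside the gene. Inside the gene, coverage was 7.27 ± 0.994 kb (SD, n = 3) in scramble and 7.68 ± 1.53 kb in knockout DMSO libraries, which overlapped. In the 100 kb at the gene's low-coordinate side, where the apolipoprotein L genes APOL6 and APOL5 lie, it was 1.52 ± 0.266 and 5.35 ± 0.856 kb. With a window of 25 kb either side, the DMSO difference was 0.025 on the log2 scale, and over the gene span alone it was 0.060. Under dexamethasone the difference over the gene span alone was 0.24, with 8.48 ± 1.55 kb in scramble and 10.4 ± 1.58 kb in knockout libraries.

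RBFOX2 had 22 merged regions, 14 of them in the gene, and shared far more of them than RBFOX1. Regions in all 12 libraries numbered 9, or 40.9%, against 23.9% of merged regions over the genome. Regions absent from all knockout libraries numbered 1, or 4.55%, against 25% over the genome. Regions of the scramble-only class numbered 0. That class held only 1.54% of the genome's regions, so among 22 regions nothing is read from the 0. The region over the high-coordinate end of the gene (36027754 to 36029449) had folds of 3.53, 4.01 and 4.84 in scramble DMSO, 3.65, 3.70 and 4.67 in scramble dexamethasone, 5.13, 6.21 and 5.71 in knockout DMSO and 5.54, 5.88 and 6.03 in knockout dexamethasone libraries. All 6 knockout values were above all 6 scramble values, as in 1.56% of the 24733 regions of the genome that all libraries shared. The region at 36052098 to 36053378, outside the gene, likewise had 3.78 to 5.08 in scramble and 5.62 to 6.86 in knockout libraries. At 35859596 to 35861759, inside the gene, the order was reversed, with 4.19 to 4.89 in scramble and 3.67 to 4.17 in knockout libraries, an order without overlap that 3.91% of such regions had. In the other 6 shared regions the folds of the genotypes overlapped.

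The flank held regions beside APOL6 that fewer scramble than knockout libraries had. The 2 given here were picked for this after their values were seen. The region at 35676001 to 35678124 was in no scramble DMSO library, in 2 scramble dexamethasone libraries and in all 6 knockout libraries, with 1634 to 2088 bp covered in the latter. The region at 35684321 to 35687012 was in 2, 2, 3 and 3 libraries of scramble DMSO, scramble dexamethasone, knockout DMSO and knockout dexamethasone. Its folds were 2.97 to 3.36 in the scramble and 3.40 to 5.07 in the knockout libraries that had it. No share over the genome is given for such an order of folds, and nothing is read from it.

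RBFOX3, on chromosome 17 (79089345 to 79665571), resembled RBFOX1 in direction but not in size. Covered length was 20.4, 16.0 and 25.4 kb in scramble DMSO libraries 1, 2 and 3, 18.1, 14.7 and 15.3 kb in scramble dexamethasone, 13.0, 14.1 and 17.6 kb in knockout DMSO and 13.6, 9.58 and 11.3 kb in knockout dexamethasone libraries. The DMSO groups overlapped in kb, though not after quantile normalisation, and the dexamethasone groups overlapped in neither. Among all tested genes, normalised knockout groups lay wholly below scramble groups for 13.9% under DMSO and 15.4% under dexamethasone. Nothing is read from this about RBFOX3. Knockout minus scramble was −0.49 ± 0.17 (SE) on the log2 scale under DMSO and −0.53 ± 0.17 under dexamethasone, the latter −0.18 with strong peaks alone and −0.35 without knockout dexamethasone library 2. Without scramble DMSO library 3 the difference under DMSO was −0.33.

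**Figure D4:**
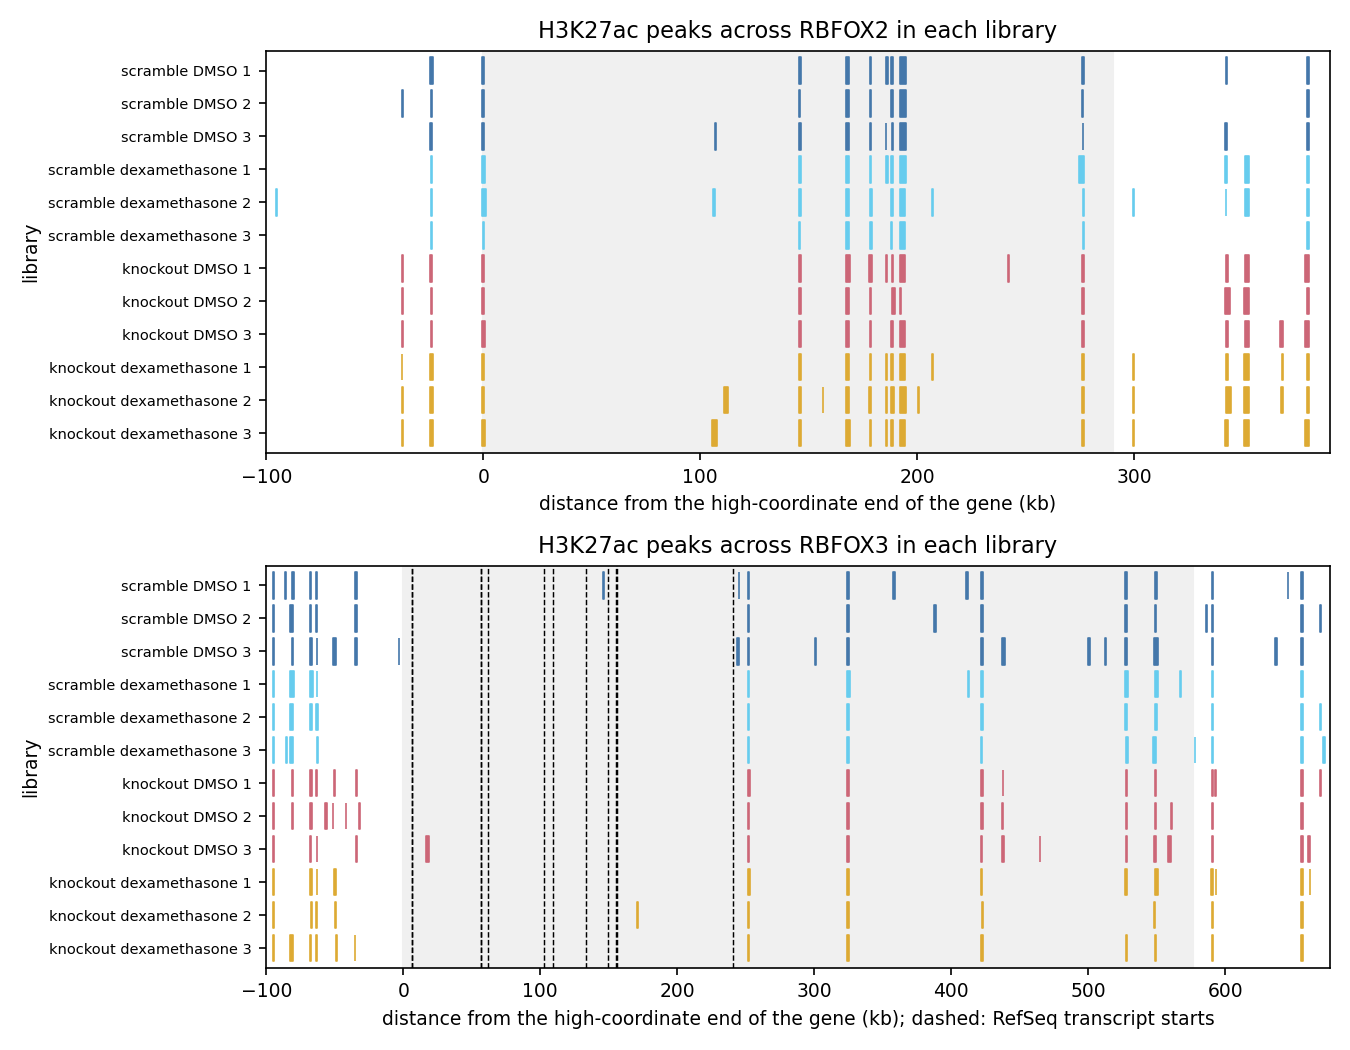
H3K27ac peaks of each library (rows, coloured by group) along RBFOX2 and RBFOX3 with 100 kb either side, drawn to scale as distance (kb) from the high-coordinate end of each gene, with the gene shaded. RBFOX2 has 9 of 22 and RBFOX3 has 7 of 42 regions present in all 12 libraries, a class that held 23.9% of merged regions over the genome.

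The 42 merged regions of RBFOX3, 20 of them in the gene, were mostly seen in few libraries. A single library held 22 of them, or 52.4%, against 31.8% of merged regions over the genome. All 12 libraries held 7, or 16.7%, against 23.9% over the genome. None of the 12 RefSeq starts of RBFOX3 lay under a peak in any library. Inside the gene, the regions at 79114787 to 79118291, 79242456 to 79243917, 79339841 to 79341706 and 79412836 to 79414321 were present in all libraries. At 79242456 to 79243917 the folds were 3.72 to 5.54 in scramble and 2.82 to 3.61 in knockout libraries, without overlap (3.91% of shared regions over the genome), and the other 3 overlapped. The highest folds of the window, 5.81 to 6.63 in scramble and 5.52 to 6.56 in knockout libraries, were at 79759671 to 79760982, outside the gene.

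Dexamethasone did not pass the test at any of the 3 genes. In scramble cells the log2 difference of dexamethasone minus DMSO was 0.25 ± 0.17 (SE, limma adjusted p = 0.73) at RBFOX1, 0.39 ± 0.15 (adjusted p = 0.48) at RBFOX2 and −0.23 ± 0.17 (adjusted p = 0.77) at RBFOX3. In knockout cells it was 0.13 ± 0.17 (limma adjusted p = 0.93) at RBFOX1, 0.39 ± 0.15 (adjusted p = 0.58) at RBFOX2 and −0.27 ± 0.17 (adjusted p = 0.79) at RBFOX3. Few genes passed at all, 0.0687% of those tested in scramble and 0.0793% in knockout cells.

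At RBFOX2 the unadjusted limma p was 0.024 in each genotype. Its normalised values did not overlap between knockout dexamethasone and knockout DMSO libraries, as in 7.61% of all genes in that direction, while in scramble cells they did overlap. The adjusted p over all alternatives ranged from 0.31 to 0.95 in scramble and from 0.41 to 0.85 in knockout cells. The direction at RBFOX1 in knockout cells rested on knockout dexamethasone library 2, without which the difference was −0.053. In scramble cells the RBFOX1 difference was 0.091 without scramble DMSO library 2, and that at RBFOX2 was 0.25 without scramble dexamethasone library 2. At RBFOX3 the difference was −0.064 in scramble cells without scramble DMSO library 3, or −0.35 without library 2, and in knockout cells −0.088 without knockout dexamethasone library 2, or −0.42 without library 1.

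The drug response was not shown to differ between the genotypes at any of the 3 genes. The interaction was −0.12 ± 0.24 (SE, limma adjusted p = 0.99) at RBFOX1, −0.0021 ± 0.22 (adjusted p = 1.0) at RBFOX2 and −0.041 ± 0.24 (adjusted p = 1.0) at RBFOX3. Over all genes 0.0106% passed. The plot of differences sets these values beside the genotype differences.

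Single regions that came or went with the drug were few. In scramble cells, 1 RBFOX1 region (6624371 to 6624910) was in all 3 dexamethasone libraries, with folds of 4.01, 3.54 and 3.05, and in no DMSO library. No knockout library had it. The RBFOX1 region at 6492443 to 6494559 described above was lost in scramble cells. Over the genome, 0.353% of merged regions were gained and 0.612% lost in scramble cells by this rule, so 1 of 119 each at RBFOX1 is a small count against a low background.

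At RBFOX2, the region at 35728739 to 35729512, at the end of APOL5, was gained in knockout cells with dexamethasone, with folds of 3.09, 3.72 and 3.37, and was in 1 scramble dexamethasone library and no DMSO library. Gained regions made up 0.305% and lost regions 0.54% of the genome's regions in knockout cells. Inside RBFOX2, the region at 35752013 to 35754175 was in every library, and its folds were 2.50, 3.21 and 2.92 in scramble DMSO against 6.13, 5.28 and 5.28 in scramble dexamethasone libraries. In knockout cells they were 5.44, 4.84 and 5.26 with DMSO and 6.33, 6.28 and 6.49 with dexamethasone. The dexamethasone libraries were above the DMSO libraries of the same genotype, as in 6.05% of shared regions in scramble and 3.5% in knockout cells, and this region was singled out after its values were seen.

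At RBFOX3, the region at 79699286 to 79701007 was lost in scramble cells, with folds of 2.78, 3.11 and 2.92 in DMSO libraries, and was in 2 knockout DMSO libraries and 1 knockout dexamethasone library. The region at 79226029 to 79228465 was lost in knockout cells, with folds of 2.71, 3.43 and 2.66 in DMSO libraries, and was in 1 scramble DMSO library.

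Other splicing genes, in 4 lists with 71 members of which 68 could be tested, gave no call with dexamethasone in either genotype by limma. In knockout against scramble cells under DMSO, 2 passed, or 2.94%, against 12.9% of all tested genes, and under dexamethasone 8 passed, or 11.8%, against 13.6%. Neither share exceeded the background. All lengths and differences given for genes of these lists include the 100 kb either side, so they may lie outside the gene itself. With a window of 25 kb, 3 genes passed under dexamethasone in place of 8. The median difference over the 68 was −0.0060 under DMSO and 0.013 under dexamethasone, beside 0.013 and 0.00058 over all genes.

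Among 7 partners of the large assembly of splicing regulators, the complex in which RBFOX proteins act, HNRNPM fell from 14.1 ± 1.49 kb in scramble to 9.50 ± 3.25 kb in knockout cells with dexamethasone (SD, n = 3, limma adjusted p = 0.016). The other 6 did not pass in either contrast, nor did any of the 14 SR proteins, which bind exonic enhancers. Of 29 tested genes in a list of further splicing regulators, not all of them limited to particular tissues, none passed under DMSO. Under dexamethasone KHDRBS1 (log2 difference 0.35) and TIA1 (0.40) rose and CELF5 (−0.38) and NOVA1 (−0.74) fell. NOVA1, a neuronal splicing factor, had only 1.46 ± 0.523 and 0.672 ± 0.0627 kb. ELAVL2, SRRM4 and KHDRBS2 had too few covered libraries to be tested.

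Of 18 genes known for exons that RBFOX proteins regulate, CACNA1C, a calcium channel gene, was higher in knockout cells under both treatments. It had 8.93 ± 2.33 kb in scramble and 15.5 ± 0.654 kb in knockout DMSO libraries (SD, n = 3, limma adjusted p = 0.011), and 8.02 ± 1.05 and 13.3 ± 0.921 kb with dexamethasone (adjusted p = 0.035). NRCAM, a neuronal cell adhesion gene, fell under DMSO, from 45.2 ± 10.3 kb in scramble to 32.7 ± 4.38 kb in knockout cells (limma adjusted p = 0.012). MEF2A, a muscle transcription factor gene, rose under dexamethasone, from 6.45 ± 1.44 kb in scramble to 11.0 ± 1.44 kb in knockout cells (limma adjusted p = 0.042). By limma, 1 gene of this list was higher and 1 lower under DMSO, and 2 were higher and 1 lower under dexamethasone.

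These counts depended on single libraries. The 8 calls under dexamethasone were 5 without scramble dexamethasone library 1, 2 without library 2, 5 without library 3, 2 without knockout dexamethasone library 1 and 4 without knockout dexamethasone library 3. The 2 calls under DMSO were 4 without scramble DMSO library 1, 1 without knockout DMSO library 2 and 4 without knockout dexamethasone library 2.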

How the data were processed

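The deposited files are 12 lists of broad H3K27ac peaks. Bowtie2 2.4.2, MACS3 3.0 and the build hg38 are named in the submitters' processing notes. Whether a control library was used is not given in the sources used here. The deposited peak positions (unit other), score (10 times −log10 q), fold enrichment (a ratio), −log10 p and −log10 q are the authors' values. The lowest −log10 q per library was 0.523 to 0.535, and no 2 lists were identical. The labels name no batch.

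Base pairs under peaks were summed per protein-coding gene of RefSeq (GRCh38.p14, the same chromosome coordinates as hg38), 100 kb either side included. Genes covered in at least 3 libraries (18924 of 19970) were tested as log2(base pairs + 500), quantile-normalised, with limma 3.58.1 (trend, robust) in R 4.3.3 over 12 libraries, adjusted by Benjamini-Hochberg with a threshold of 0.05. The code was tested on simulated data. Windows of neighbouring genes overlap, so genes are not independent. Python 3.11.15 did the rest.

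The members, lists and tests were chosen with earlier results of these data known. Named were the family, genes in its windows, called list members (up to 5 per list and contrast), the 5 genes most correlated with RBFOX1 and CEBPB; 1 called member of the list of genes with RBFOX-regulated exons is counted but not reported here. Others are said to have been picked after their values were seen, or stand as the leading long genes.

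Alternatives were a window of 25 kb, the gene span alone, an offset of 100 bp, no normalisation, no gene filter, strong peaks, fits within a genotype, a replicate block, other rules for regions and leaving out each library.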

Additional observations from a re-analysis of the deposited data

How the results depend on the processing

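Apart from leaving out libraries, 121 of 138 recomputed values counted as kept in direction and in size or call. A drug difference counted as kept when its sign and its lack of a call held, whatever its size. The lowest at RBFOX2 in scramble cells, for example, was 0.12 in place of 0.39. Counts that stayed at 0 were included, so the tally does not measure how stable the sizes were. With strong peaks alone, the knockout differences at RBFOX1 were −1.68 under DMSO and −1.74 under dexamethasone. The scramble-only regions there numbered 5, in a class that held 2.18% of the genome's regions by that rule. With the same peaks the RBFOX2 difference under DMSO was 0.31 and the RBFOX3 difference under dexamethasone was −0.18. The interactions at RBFOX2 and RBFOX3 turned to 0.24 and 0.11 with them. The RBFOX2 interaction, near 0 as reported, was 0.31 with a window of 25 kb, 0.18 over the gene span and 0.0064 without normalisation. The RBFOX2 knockout difference under DMSO was 0.025 with 25 kb and 0.060 over the gene span, where that under dexamethasone was 0.24. Calls in the splicing lists under DMSO were 1 without normalisation and 6 with strong peaks, and under dexamethasone 3 with 25 kb and 4 without normalisation. The cause of these moves was not tested.

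Leaving out each library gave −0.053 to 0.26 for dexamethasone at RBFOX1 in knockout cells and 0.091 to 0.35 in scramble cells, 0.34 to 0.47 and 0.25 to 0.57 at RBFOX2, −0.42 to −0.088 and −0.35 to −0.064 at RBFOX3, interactions of −0.31 to 0.036 at RBFOX1, −0.18 to 0.14 at RBFOX2 and −0.20 to 0.14 at RBFOX3, and 1 to 4 and 2 to 10 calls in the lists under DMSO and dexamethasone. The knockout differences at RBFOX1 ranged from −2.56 to −2.29 and from −2.73 to −2.43, those at RBFOX2 from 0.44 to 0.55 and from 0.32 to 0.64, those at RBFOX3 from −0.61 to −0.33 and from −0.68 to −0.35, and 26 to 30 regions were scramble-only.

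Same-numbered libraries did not deviate together (r of −0.099 to 0.097 over 18 pairs), and differently numbered ones had −0.11 to 0.14 over 36 pairs. With all values this near 0, the check cannot tell whether libraries with the same number shared a culture or day. A replicate block left every difference of the family as reported (RBFOX1 −2.41 under DMSO) and the list calls at 2 and 8, and gave 1163 higher and 1153 lower genes under DMSO in place of 1213 and 1220. Without read counts, peaks under the authors' threshold cannot be seen, and the depth of each library is unknown.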

Other observations

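Other annotated genes share the family's windows, and their coverage is given with 1 kb either side. Within the RBFOX1 window RefSeq lists 17, of which 11 are pseudogenes, 5 long noncoding RNAs and 1 a miRNA. Both long noncoding RNA genes with peaks lie in the stretch that differed between genotypes. LOC105371068 (7042611 to 7055491) was covered for 1.45 to 2.75 kb in the 6 scramble libraries and LOC124903640 (7301557 to 7304680) for 1.18 to 2.38 kb, and both were listed at 0 in all 6 knockout libraries. RNU7-99P was covered in 3 scramble libraries and no knockout library, and ENPP7P14, before the gene, in 3 and 1. The other 13, LOC105371067, VPS51P1, LINC02164, LOC124903639, RPS3AP48, SNRPCP20, NPM1P3, LINC01570, MIR8065, RNU6-457P, RNU6-328P, RPS26P51 and LOC124900381, had no peak in any library.

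In the RBFOX2 window, APOL6 was covered in all 12 libraries, for 1.13 to 1.24 kb in scramble and 1.23 to 3.32 kb in knockout libraries, and APOL5 in 1 scramble and 3 knockout libraries. RPL41P3 was covered in 2 knockout libraries, and MRPS16P3 and NDUFA9P1 in none. In the RBFOX3 window, CANT1, a nucleotidase gene, had 1.37 to 2.85 kb in scramble and 1.38 to 2.89 kb in knockout libraries, and ENGASE, an endoglycosidase gene, 0.688 to 1.34 kb and 0.539 to 1.14 kb. LOC124904070 was also covered in all libraries, ENPP7 in 5 scramble and 6 knockout libraries, C1QTNF1-AS1 in 2 and 0, C1QTNF1 in 1 and 0, and LOC124904133 in 1 and 3. MIR4739 and LINC02078, which lie side by side, were covered in 1 knockout library, and LOC124904069 in none.

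Over the 12 libraries, normalised coverage of RBFOX1 and RBFOX3 had a Pearson r of 0.70, RBFOX1 and RBFOX2 of −0.63 and RBFOX2 and RBFOX3 of −0.78. The libraries share genotype and treatment, so these values repeat the differences between the groups and are given without a test.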
